A study of Mus musculus with 12 samples.

Results

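De novo fatty acid synthesis, the making of fatty acids from carbon that comes mainly from sugar, was followed through 10 genes: Fasn, Acaca, Acly, Scd1, Scd2, Elovl6, Me1, Thrsp, Mlxipl and Srebf1. The 10 were taken by gene symbol from the deposited count tables, and all 10 were found among 20632 symbols. All 10 also passed the filter on low counts, which kept 12175 genes. Expression had been measured by QuantSeq, a method that sequences the 3' ends of transcripts, in whole gonadal (peri-uterine) white fat, taken at E17.5 from 12 pregnant mice. WT vehicle (4 mice) was labelled Tnfrsf11a (Rank) and Foxn1 Cre negative, wild type, and received vehicle. KO vehicle (4 mice) was labelled Tnfrsf11a (Rank) and Foxn1 Cre positive, knockout, and received vehicle. KO Treg (4 mice) had the same knockout label and received the treatment labelled Treg. Foxn1 drives Cre in thymic epithelium, so the labelled deletion is not directed at fat cells. The sources used here give no strain, age, dose or route.

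The pathway runs in the cytosol. Citrate leaves the mitochondrion and is split by ATP citrate lyase (Acly) into acetyl-CoA, acetyl-CoA carboxylase (Acaca) turns this into malonyl-CoA, and fatty acid synthase (Fasn) builds palmitate from both with NADPH, part of which comes from malic enzyme (Me1). The elongase Elovl6 lengthens palmitate to stearate, and the desaturases Scd1 and Scd2 put a double bond into the chain. Thrsp (Spot 14) is a small protein that promotes lipid synthesis, and the genes of the pathway are switched on by SREBP-1c, made from Srebf1 after insulin, and by ChREBP, made from Mlxipl and activated by glucose metabolites. White fat is a main site of this pathway in mice, along with liver.

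On mm10, by GENCODE annotation, Fasn lies on the minus strand at chr11:120805846-120824547, Acly on the minus strand at chr11:100476353-100528000, Srebf1 on the minus strand at chr11:60199089-60222581 and Acaca on the plus strand at chr11:84129672-84401651. Scd1 (chr19:44394455-44407879, minus) and Scd2 (chr19:44293674-44306864, plus) are neighbours. Elovl6 lies at chr3:129532355-129638495 (plus), Me1 at chr9:86581371-86695953 (minus), Thrsp at chr7:97412938-97417730 (minus) and Mlxipl at chr5:135089890-135138382 (plus).

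The sequences just upstream of a pair of enzyme genes and of both transcription factor genes are shown side by side. The enzymes moved together across the libraries, and the factors followed Fasn least closely. RefSeq windows on GRCm38.p6 were found for 8 of the 10 genes, and the 250 bases before the start are printed for 1 window each of 4 genes, none with a base in an annotated exon. They are chr11:120824548-120824797 (minus) for Fasn, chr11:100528001-100528250 (minus) for Acly, chr5:135089640-135089889 (plus) for Mlxipl and chr11:60210472-60210721 (minus) for Srebf1. Mlxipl and Srebf1 have several starts in the table, and the windows shown were picked for holding CACGTG and TCACCC. Further windows of Mlxipl, Srebf1, Acaca and Me1 are also free of annotated exons and are not printed. Capitals mark CCAAT (the NF-Y motif), GGGCGG (the GC box of Sp1-type factors), CACGTG (an E-box) and TCACCC (letters shared by many sterol regulatory elements), each on either strand. All 4 are written 5' to 3' towards the gene.
Fasn: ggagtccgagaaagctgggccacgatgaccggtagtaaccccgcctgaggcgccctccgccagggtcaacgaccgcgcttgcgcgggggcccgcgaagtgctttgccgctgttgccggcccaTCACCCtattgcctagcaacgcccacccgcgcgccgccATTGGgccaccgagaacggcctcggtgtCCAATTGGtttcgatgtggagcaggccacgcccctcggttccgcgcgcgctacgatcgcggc
Acly: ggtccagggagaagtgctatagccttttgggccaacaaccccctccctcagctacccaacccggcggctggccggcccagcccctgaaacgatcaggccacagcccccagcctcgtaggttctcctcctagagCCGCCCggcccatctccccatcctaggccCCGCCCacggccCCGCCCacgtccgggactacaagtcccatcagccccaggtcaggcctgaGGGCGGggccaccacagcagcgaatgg
Mlxipl: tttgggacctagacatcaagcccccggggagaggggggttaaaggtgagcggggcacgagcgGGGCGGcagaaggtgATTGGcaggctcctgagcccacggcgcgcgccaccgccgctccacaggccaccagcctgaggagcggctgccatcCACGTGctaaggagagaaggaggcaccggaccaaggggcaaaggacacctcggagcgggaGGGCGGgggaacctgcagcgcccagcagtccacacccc
Srebf1: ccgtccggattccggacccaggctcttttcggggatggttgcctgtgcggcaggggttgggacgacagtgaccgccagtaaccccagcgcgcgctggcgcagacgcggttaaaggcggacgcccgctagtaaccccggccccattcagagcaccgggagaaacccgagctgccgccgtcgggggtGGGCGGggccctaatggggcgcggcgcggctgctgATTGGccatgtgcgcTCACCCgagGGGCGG

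The Fasn window held CCAAT 3 times, with first letters 90, 62 and 59 bases before the start, and the last 2 overlap on opposite strands. It also held TCACCC 128 bases before the start. The Acly window held no CCAAT but GGGCGG 4 times, 117, 88, 76 and 27 bases before the start. In the Mlxipl window CACGTG stood 98 bases before the start, with CCAAT at 173 and GGGCGG at 188 and 38. The Srebf1 window held TCACCC at 15, CCAAT at 30 and GGGCGG at 65 and 6 bases before the start. Of 32851 RefSeq windows of the same 250 bases, 33.85% held CCAAT, 32.74% GGGCGG, 13.83% TCACCC and 6.021% CACGTG. The Mlxipl window was picked for its CACGTG and the Srebf1 window for its TCACCC, so these shares do not bear on those matches. Other windows of Mlxipl held no CACGTG, and those of Srebf1 no TCACCC. A match describes letters in a window, not a bound site.

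Library totals ran from 5551967 to 12972655 counts. Libraries of 1 group differed by more than sampling noise in every pair, and the labels give each its own number, taken as 1 animal each. Tnfrsf11a had 44 to 90 counts in every library, which checks nothing about a deletion in thymic epithelium. The summed level of 10 white adipocyte markers was 66676 to 100974 CPM (read counts after scaling every library to a common total), so every library carried abundant fat cell transcripts. Some libraries stood apart on other markers. The sum of 8 thermogenic fat markers reached 5874 CPM in WT vehicle 1. KO vehicle 2 followed with 2311 CPM and KO vehicle 3 with 1308 CPM, and no other library exceeded 468 CPM. The sum of 8 placental markers reached 136 CPM in KO Treg 2, with 43.2 CPM in KO vehicle 1 and at most 2.28 CPM elsewhere. All 4 KO vehicle animals carry numbers of a lower series, whereas a higher series supplies 2 of the 4 animals in each of the other groups. Nothing in the labels calls a series a batch.

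**Figure D1:**
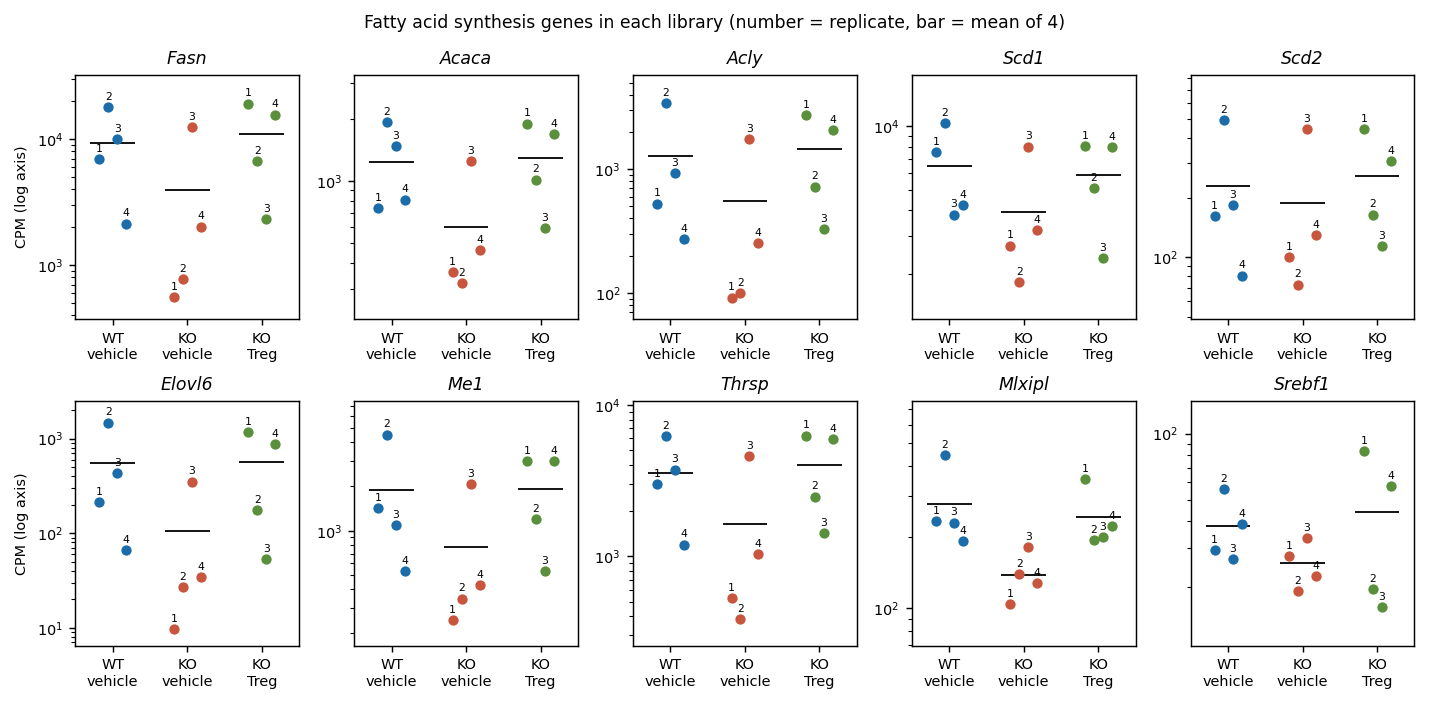
Level of each of the 10 genes in every library (CPM, log axis, a separate range in each panel), with the replicate number over each point and a bar at the mean of the 4 animals. KO vehicle 3 lies far above the other 3 KO vehicle libraries for the enzymes, and for Mlxipl the 4 KO vehicle libraries lie below all 8 others.

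In all of what follows, 4 values in a row belong to animals 1 to 4 of the group named. Acly, which opens the pathway, was at 528, 3437, 934 and 272 CPM in WT vehicle, in KO vehicle at 91.6, 100.3, 1751 and 253 CPM, and in KO Treg at 2760.1, 725, 329.9 and 2076 CPM. The groups overlapped, and KO vehicle 3 exceeded 2 of the 4 KO Treg libraries. Me1, a source of NADPH for the synthase, was at 1418, 4499, 1096 and 530.1 CPM in WT vehicle, in KO vehicle at 248, 345, 2084 and 428 CPM, and in KO Treg at 2985, 1207, 531 and 2969.6 CPM. The same KO vehicle animal was the high one, and the other 3 were below every WT vehicle and KO Treg library. Acaca, the committed step, was at 736, 1937, 1473 and 813 CPM in WT vehicle, in KO vehicle at 361, 319, 1255 and 463 CPM, and in KO Treg at 1901, 1017, 589 and 1687 CPM. Again only KO vehicle 3 reached the range of the other groups.

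Fasn itself was at 6987, 18119, 9998 and 2139 CPM in WT vehicle. In KO vehicle it was at 558, 778, 12511 and 2023 CPM. In KO Treg it was at 19198, 6687, 2339 and 15678 CPM. Each group thus held at least 1 animal with high and at least 1 with low synthase, and WT vehicle 4, KO vehicle 4 and KO Treg 3 lay close together between 2023 and 2339 CPM. Elovl6, the elongase that acts on the synthase's product, was at 215, 1478, 432 and 66.4 CPM in WT vehicle, in KO vehicle at 9.69, 26.8, 352 and 34.3 CPM, and in KO Treg at 1165, 177, 52.9 and 871 CPM. It was lowest in KO vehicle 1 (85 counts) and highest in WT vehicle 2 (13808 counts). Scd1, the main desaturase of fat, was at 7562, 10344, 3808 and 4229 CPM in WT vehicle, in KO vehicle at 2715, 1820.1, 7999.7 and 3215 CPM, and in KO Treg at 8043, 5071, 2375 and 7959.6 CPM. KO Treg 3, not a vehicle animal, was the next lowest after KO vehicle 2 for this gene. Scd2, its close paralog, was at 160.3, 492, 183 and 80.6 CPM in WT vehicle, in KO vehicle at 99.9, 72.6, 445 and 129 CPM, and in KO Treg at 443, 164, 114 and 305 CPM. KO vehicle 3 was higher here than every library but WT vehicle 2. How reads that fit both Scd1 and Scd2 were counted was not examined, so the values of both desaturases are uncertain to that extent. Exons of Scd2, but not of Scd1, also overlap Mir5114 on the same strand.

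Thrsp was at 2987, 6244, 3739.8 and 1194 CPM in WT vehicle, in KO vehicle at 528, 384, 4583 and 1028 CPM, and in KO Treg at 6259.6, 2474, 1415 and 5976 CPM. Its order over the 12 libraries was nearly that of Fasn. Of the 2 transcription factor genes, Mlxipl varied least of the 10. Srebf1, with a 5.14-fold span over the libraries, varied little less than Scd1 with 5.68-fold. Mlxipl was at 234, 445, 230.5 and 193 CPM in WT vehicle, in KO vehicle at 104, 139.7, 181 and 128 CPM, and in KO Treg at 353, 194, 200.4 and 223 CPM. It is the gene among the 10 whose KO vehicle values all lay below both other groups. Srebf1 was at 29.5, 55.9, 26.7 and 38.7 CPM in WT vehicle, in KO vehicle at 27.6, 19.1, 33.3 and 22.4 CPM, and in KO Treg at 83.0, 19.5, 16.1 and 57.7 CPM. Its lowest and its highest library were both KO Treg animals. Reads at the 3' end do not separate transcripts that differ in their first exon, so SREBP-1a cannot be told from SREBP-1c, nor the long from the short ChREBP transcript. Exons of Mlxipl, Srebf1, Elovl6 and Me1 overlap Gm43500, Rai1, Gm35986 and A330041J22Rik on the opposite strand, and those of Srebf1 overlap Mir6922 on the same strand. The sources used here do not give the strand setting of the counting.

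The knockout was compared with the wild type first, both given vehicle. All 10 genes had a lower mean in KO vehicle, with a median log2 fold change of -1.08 where the median over all 12175 genes was -0.0039. The 10 rose and fell together across the libraries (median pairwise correlation 0.88), so their shared direction is not 10 separate results. None of the 10 passed the test in edgeR, in which 0.279% of all genes were called in either direction (34 genes). Fasn was at 3967 ± 5732 CPM in KO vehicle against 9311 ± 6705 CPM in WT vehicle (mean ± SD, n = 4 each), a log2 fold change of -1.23 ± 1.10 (SE, edgeR adjusted p = 0.720). The SD was larger than the mean in KO vehicle, and the difference was smaller than the spread between animals of either group. In whole tissue, fewer cells of a type and less RNA per cell cannot be told apart.

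Elovl6 had the widest difference, 106 ± 165 against 548 ± 638 CPM (log2 fold change -2.37 ± 1.43, edgeR adjusted p = 0.567). Its 95% interval ran from -5.60 to 0.85. For Acly and Me1 the log2 fold changes were -1.24 ± 1.19 and -1.28 ± 0.91 (edgeR adjusted p = 0.744 and 0.639). Thrsp differed by -1.12 ± 0.87 and Acaca by -1.05 ± 0.54 (edgeR adjusted p = 0.672 and 0.479). The desaturases differed less, Scd1 by -0.72 ± 0.54 and Scd2 by -0.30 ± 0.74 (edgeR adjusted p = 0.659 and 0.921). The intervals of all 8 of these genes included 0.

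Of the transcription factors, Mlxipl was at 138 ± 32.2 CPM in KO vehicle against 276 ± 114 CPM in WT vehicle. The log2 fold change was -0.997 ± 0.27, with an interval from -1.58 to -0.41, an unadjusted edgeR p of 0.00258 and an adjusted p of 0.146. At an unadjusted p under 0.05 it was the only gene of the 10, beside 12.4% of all genes (1515). Its groups did not overlap, the only such case among the 10, and the same held for 6.51% of all genes (792 of 12175). DESeq2, which called 1.93% of the genes it gave an adjusted p (250), called Mlxipl alone of the 10 (adjusted p = 0.0162, log2 fold change -1.01), whereas limma voom with quality weights did not (adjusted p = 0.113). Srebf1 was at 25.6 ± 6.20 against 37.7 ± 13.2 CPM (log2 fold change -0.56 ± 0.49, edgeR adjusted p = 0.707), and its groups overlapped.

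The size of the differences moved with single animals. Without KO vehicle 3 the log2 fold change of Fasn was -3.06 and that of Elovl6 -4.53, with edgeR adjusted p-values of 0.215 and 0.231, and the median over the 10 was -2.08. Without WT vehicle 2 those of Fasn and Elovl6 were -0.69 and -1.17, the median was -0.53, and Scd2 turned to higher at 0.40. Mlxipl was at -0.67 in that fit, its smallest difference with 1 library left out. Within the lower number series (2 WT vehicle, 4 KO vehicle and 2 KO Treg libraries) the median was -1.41, Fasn was at -1.68 and Mlxipl at -1.31 (edgeR adjusted p = 0.198 for Mlxipl). With the series as a covariate Mlxipl was at -1.22 (edgeR adjusted p = 0.0928). Without the 2 libraries with placental transcripts the median was -0.88. It was also -0.88 without KO vehicle 1 alone, which is 1 of those 2. Without the 3 libraries with the most Ucp1, the thermogenic marker, the median was -2.03, and KO vehicle 3 is 1 of those 3. The part of placental or thermogenic tissue was not tested. All 10 genes were lower in KO vehicle in each of these fits except the 1 without WT vehicle 2.

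The treatment labelled Treg was compared with vehicle within the knockout. This comparison uses the same KO vehicle libraries as the first, so the 2 sets of fold changes are not independent of each other. All 10 genes had a higher mean in KO Treg, with a median log2 fold change of 1.21 against -0.0018 over all genes. Here too the 10 moved together, so their shared direction is not 10 separate results. None of the 10 was called by edgeR, where 0.00821% of all genes were (1 gene).

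Fasn was at 10975.5 ± 7804 CPM in KO Treg against 3967 ± 5732 CPM, a log2 fold change of 1.47 ± 1.11 (SE, n = 4 each, edgeR adjusted p = 0.785). Elovl6 was at 566 ± 537 against 106 ± 165 CPM (2.42 ± 1.44, edgeR adjusted p = 0.703). The log2 fold changes of Acly, Me1, Thrsp and Acaca were 1.42, 1.31, 1.31 and 1.11, with edgeR adjusted p-values from 0.605 to 0.815. The fitted folds of these 6 genes ran from 2.17 for Acaca to 5.36 for Elovl6, and each had an interval that included 0. Scd1 differed by 0.57 ± 0.54, Scd2 by 0.46 ± 0.74 and Srebf1 by 0.79 ± 0.49 (edgeR adjusted p = 0.843, 0.922 and 0.705). Srebf1 was at 44.1 ± 32.1 CPM in KO Treg against 25.6 ± 6.20 CPM in KO vehicle. KO Treg 1 and KO Treg 4 were above every KO vehicle library for this gene, KO Treg 3 was below every one, and KO Treg 2 was near the lowest.

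Mlxipl was at 243 ± 74.7 CPM in KO Treg against 138 ± 32.2 CPM in KO vehicle, a log2 fold change of 0.81 ± 0.27 with an interval from 0.23 to 1.39. Its unadjusted edgeR p was 0.00962 and the adjusted p 0.409. An unadjusted p under 0.05 was found for 8.77% of all genes (1068) and for Mlxipl alone of the 10, and DESeq2 called 0.388% of genes (54) and none of the 10. The groups did not overlap, as for 5.04% of all genes (614 of 12175), and no other gene of the 10 shared this. Without KO vehicle 3 the median over the 10 was 2.13, with Fasn at 3.29 and Mlxipl at 0.97 (edgeR adjusted p = 0.305 and 0.266). Without KO Treg 1 the median was 0.92 and Mlxipl was at 0.59, its smallest difference with 1 library left out. Within the lower number series the median was 1.38. The difference stayed above 0 for all 10 genes in each of 23 alternative fits, which share libraries and are not separate checks.

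**Figure D2:**
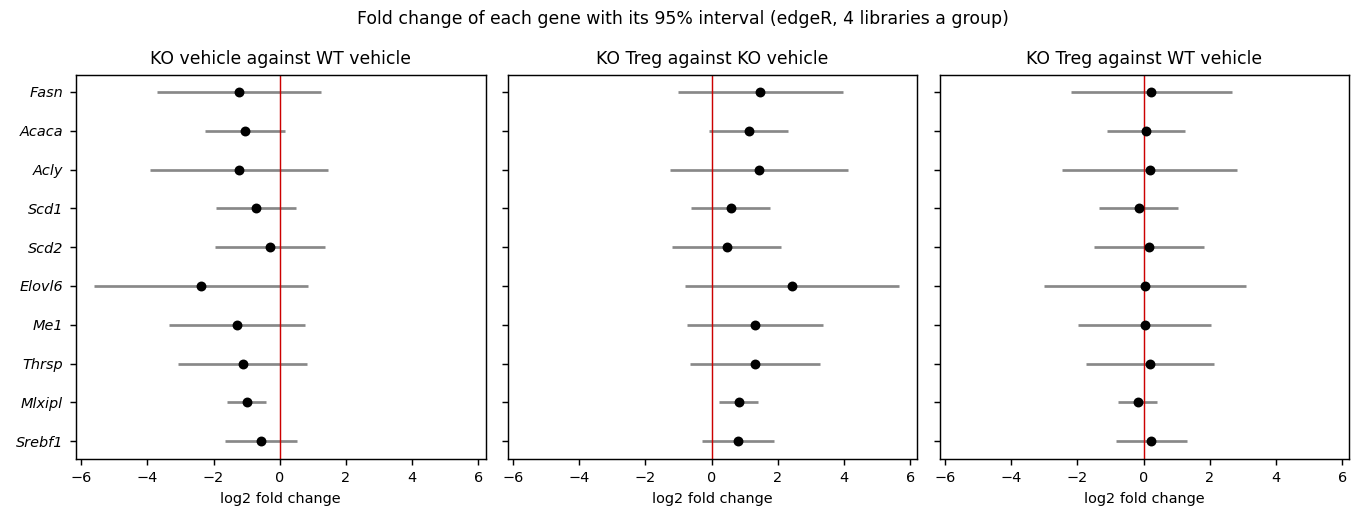
Log2 fold change of each gene in the 3 comparisons (points) with its 95% interval (lines) from edgeR, 4 libraries a group, and 0 marked by the red line. All 10 points lie below 0 for KO vehicle against WT vehicle and above 0 for KO Treg against KO vehicle, and of the 10 intervals only that of Mlxipl lies clear of 0 in these 2 comparisons.

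Between KO Treg and WT vehicle the 10 genes had similar means. The median log2 fold change was 0.11, with 8 genes above and 2 below 0, and edgeR called 0% of all genes and none of the 10. At an unadjusted p under 0.05 there were 349 genes, none of them among the 10, and DESeq2 called 1 gene (0.00608%), again none of the 10. Fasn was at 10975.5 ± 7804 CPM against 9311 ± 6705 CPM, a log2 fold change of 0.24 ± 1.09 with an interval from -2.21 to 2.68. That of Mlxipl was -0.18 ± 0.27, from -0.76 to 0.39, and that of Srebf1 0.23 ± 0.48, from -0.84 to 1.297. The intervals are wide enough to hold a change of more than 4-fold in Fasn, so equality was not shown. No gene of the 10 had groups apart, which 1.63% of all genes did (199 of 12175). The signs here depended on single animals: without KO Treg 1 all 10 genes were below 0, and without WT vehicle 2 all 10 were above.

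Over the 3 groups together, a test of any difference called 0.0329% of all genes in edgeR (4 genes) and none of the 10, with Mlxipl at an adjusted p of 0.285. In DESeq2 the same test called 1.39% of genes (185), among them Mlxipl at an adjusted p of 0.0453 and no other of the 10. Group membership held 55.7% of the variance of log2 CPM of Mlxipl over the 12 libraries, 40.4% of that of Acaca, 33.7% of that of Fasn and 8.001% of that of Scd2. The median over all genes was 16.1%.

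The spread between animals of 1 group was far larger for this pathway than for most genes. The SD of log2 CPM within groups, pooled over the 3 groups, was 2.05 for Elovl6, and 11 of the 12175 genes had a larger one. It was 1.66 for Acly (23 genes larger), 1.60 for Fasn (26), 1.28 for Me1 (63) and 1.24 for Thrsp (79). Scd2 was at 1.04, Scd1 at 0.81, Acaca at 0.79 and Srebf1 at 0.75, each larger than in 95% of the genes tested. Mlxipl was the steadiest at 0.43, with 2746 genes above it, and the median gene was at 0.28. In each group the spread of Fasn was wide, with SDs of 1.299 in WT vehicle, 2.01 in KO vehicle and 1.38 in KO Treg.

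On the linear scale, the highest library exceeded the lowest 152.5-fold for Elovl6, 37.5-fold for Acly and 34.4-fold for Fasn. The span was 18.2-fold for Me1, 16.3-fold for Thrsp, and between 4.27-fold (Mlxipl) and 6.78-fold (Scd2) for the other 5 genes. The median over all genes was 1.94-fold. Together the 10 genes took 0.427% of all counts in KO vehicle 2 and 4.56% in WT vehicle 2, and Fasn alone took between 0.0586% and 1.95%.

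**Figure D3:**
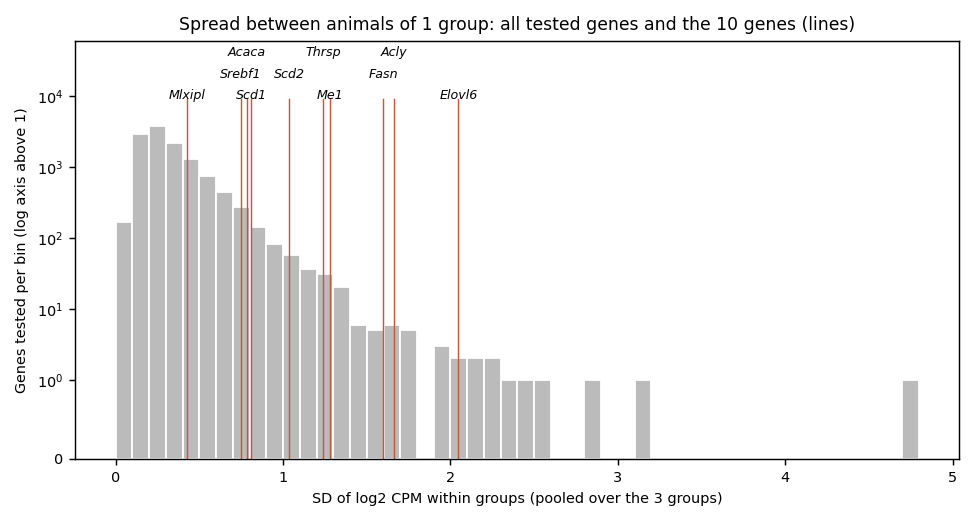
Histogram of the SD of log2 CPM within groups (pooled over the 3 groups) for the 12175 genes tested, in bins of equal width with counts on an axis that is logarithmic above 1, and a line at each of the 10 genes. Most genes lie near the median of 0.28, and the line of Elovl6 at 2.05 is in the sparse upper tail.

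The same animals were high or low for nearly every gene. WT vehicle 2 was the highest library for 7 of the 10 genes and KO Treg 1 for the other 3, and both were among the top 3 for all 10. KO Treg 4 was among the top 5 for all 10, and KO vehicle 3 for 9. At the other end, KO vehicle 1 was the lowest for 5 genes, KO vehicle 2 for 4 and KO Treg 3 for 1. KO vehicle 2 was among the bottom 3 libraries for all 10 genes, KO vehicle 1 for 9 and KO vehicle 4 for 7. KO vehicle 3 ranked 9 of 12 for Mlxipl, while the other 9 genes ranked between 2 and 5 in that library.

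**Figure D4:**
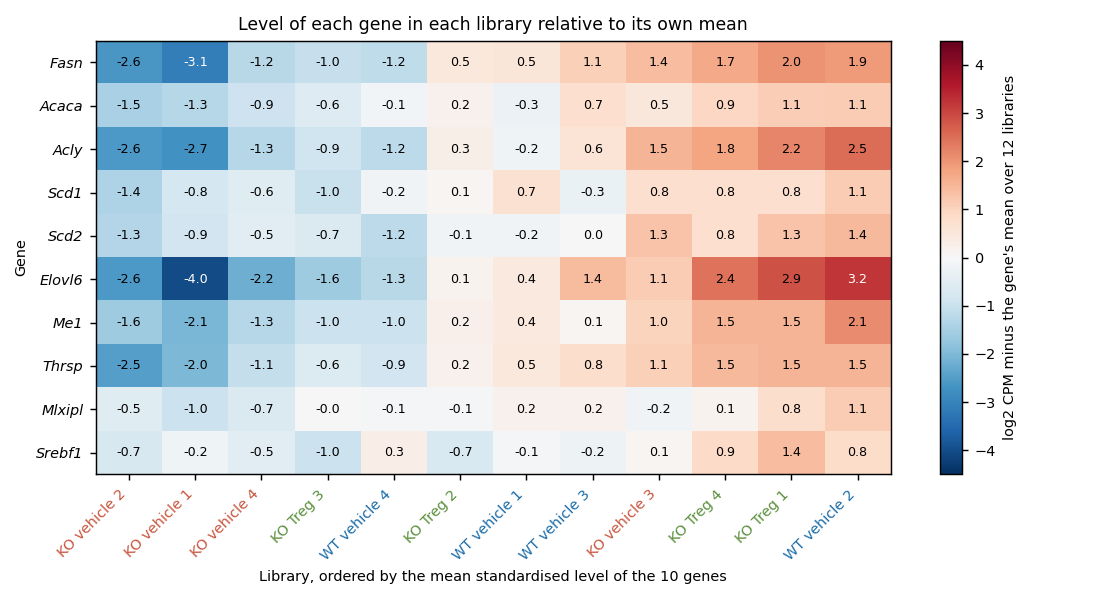
Level of each gene in each library as log2 CPM minus the gene's mean over the 12 libraries, with libraries ordered by the mean standardised level of the 10 genes and coloured by group. Elovl6 runs from its lowest level in KO vehicle 1 to its highest in WT vehicle 2, and libraries of all 3 groups are mixed along the order except at its low end, where 3 KO vehicle libraries stand.

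The levels of the other 9 genes were compared with that of Fasn over the 12 libraries, as 9 correlations of log2 CPM. P-values came from 100000 permutations and were adjusted over the 9. The permutations ran over all 12 libraries regardless of group, so differences between groups that the genes share enter these p-values. Thrsp followed Fasn most closely (Pearson r = 0.989, Spearman rho = 0.993, permutation adjusted p = 2.25e-05 for both). Acly (r = 0.980), Elovl6 (0.978), Me1 (0.965) and Acaca (0.955) were close behind, with rho between 0.944 and 0.986. Their raw p of 1e-05, or 2e-05 for Acaca, was at or next to the smallest that the permutations can give. Scd2 had r = 0.891 and Scd1 r = 0.880 (permutation adjusted p = 0.000165 and 0.000424), with rho of 0.909 and 0.881. Mlxipl had r = 0.827 and rho = 0.832 (permutation adjusted p = 0.000652 and 0.00164), and Srebf1 was the loosest with r = 0.644 and rho = 0.692 (0.0250 and 0.0155).

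All 9 relations stayed positive when extreme libraries were left out, but those of Mlxipl and Scd1 were weaker then. Without KO vehicle 1 and KO vehicle 2, the libraries farthest from the median of Fasn, r was 0.994 for Thrsp, 0.967 for Acly, 0.977 for Elovl6, 0.711 for Mlxipl and 0.692 for Srebf1, and all 9 adjusted permutation p-values were at most 0.0288. Fasn has a gap of 1.52 on the log2 scale between 7 libraries above and 5 below. Among the upper 7 r was 0.988 for Thrsp, 0.971 for Acly, 0.918 for Srebf1, 0.654 for Mlxipl and 0.594 for Scd1. For Mlxipl and Scd1 rho was 0.536 and 0.821, and no p was computed for these 7 libraries. Within the lower number series (8 libraries) r was 0.989 for Thrsp and 0.871 for Mlxipl, and Srebf1 at 0.686 missed the threshold (exact permutation adjusted p = 0.0588). After removing group means r was 0.984 for Thrsp, 0.976 for Acly, 0.747 for Mlxipl and 0.583 for Srebf1, as a description. All 10 genes were read from the same libraries and share their scaling, so the correlations describe these animals and are no measure of control of 1 gene by another.

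The genes differed in how much they moved for the same change in Fasn. For each unit of log2 Fasn, Elovl6 moved by 1.28, Acly by 0.98, Thrsp by 0.78 and Me1 by 0.74 units. Acaca moved by 0.50, Scd2 by 0.49 and Scd1 by 0.41. Mlxipl and Srebf1, the 2 transcription factor genes, moved by 0.27 and 0.26. Over all 45 pairs among the 10 genes r ran from 0.64 to 0.99, with a median of 0.88, and the lowest was that of Fasn with Srebf1.

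**Figure D5:**
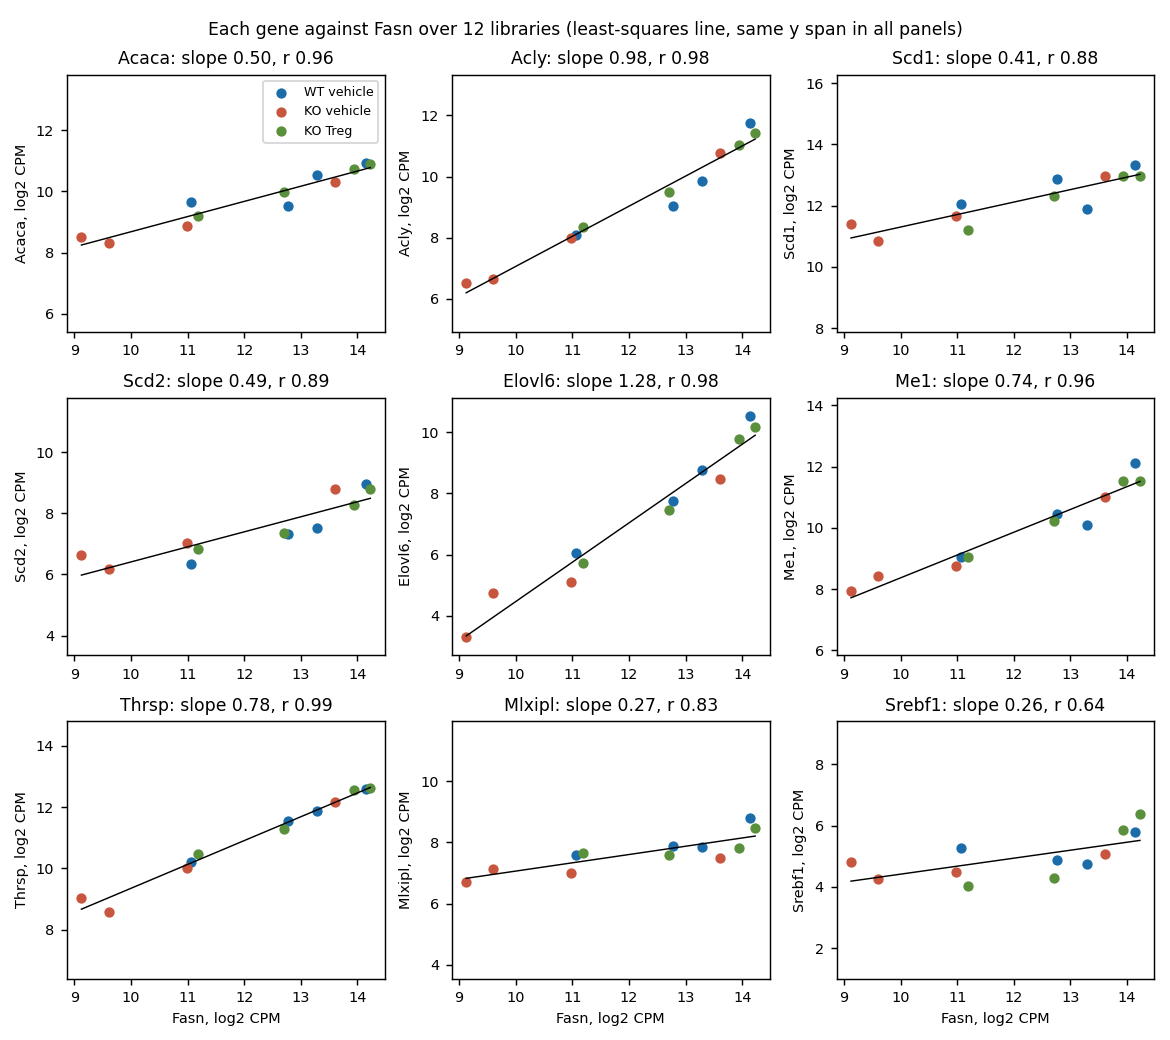
Log2 CPM of each of the 9 other genes against that of Fasn over the 12 libraries, coloured by group, with a least-squares line and the same y span in all panels so that slopes can be compared. Elovl6 has the steepest line, with a slope of 1.28, and Mlxipl and Srebf1 have the flattest at 0.27 and 0.26.

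The other genes of the route from sugar to fat were read from lists of neighbouring steps. Over all 12175 genes, 6180 were below 0 in KO vehicle against WT vehicle and 6052 above 0 in KO Treg against KO vehicle. Of 28 tested genes of carbon supply (glucose and fructose transport, glycolysis, pyruvate and citrate handling), 26 had a log2 fold change below 0 in KO vehicle against WT vehicle, with a median of -0.44, and 25 were above 0 in KO Treg against KO vehicle, with a median of 0.40. None was called in any comparison by edgeR. The smallest p in the first comparison was that of Mpc2, a subunit of the mitochondrial pyruvate carrier, at 267 ± 86.7 against 507 ± 141 CPM (log2 fold change -0.92 ± 0.30, edgeR adjusted p = 0.202). In the second it was that of Cs, citrate synthase, at 173 ± 43.6 against 125 ± 13.1 CPM (0.47 ± 0.19, edgeR adjusted p = 0.513). In KO Treg against WT vehicle 13 of the 28 were above 0, and the smallest p was that of Acss1, a mitochondrial acetyl-CoA synthetase, at -0.98 ± 0.52 (edgeR adjusted p = 0.9999). Across the 12 libraries 16 of the 28 had r above 0.8 with the mean standardised level of the 10 genes, and the median r was 0.85. Of all 12165 tested genes outside the 10, 1.46% had r above 0.8 (178), and the median r was -0.016.

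NADPH supply by the pentose phosphate route and related enzymes was more divided. Of 10 tested genes, 8 were below 0 in KO vehicle against WT vehicle, with a median of -0.20, and none was called. Tkt, transketolase, had the largest difference at 496 ± 513 against 1143 ± 765 CPM (log2 fold change -1.20 ± 0.90, edgeR adjusted p = 0.660), and in KO Treg it was at 1798 ± 1508 CPM. G6pdx, the first enzyme of the route, went the other way, at 133 ± 19.98 CPM in KO vehicle against 98.9 ± 18.4 CPM in WT vehicle (0.43 ± 0.17, edgeR adjusted p = 0.305). Its r with the 10 genes was -0.03, whereas that of Pgd, the next dehydrogenase and chosen here after its values were seen, was 0.91. In KO Treg against KO vehicle 8 of the 10 genes were above 0, and the smallest p was that of Rpia at -0.36 ± 0.17 (edgeR adjusted p = 0.576).

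Of 20 other enzymes of fatty acid synthesis, elongation and desaturation, 16 were below 0 in KO vehicle against WT vehicle and 12 above 0 in KO Treg against KO vehicle, and none was called. Mid1ip1, a partner of acetyl-CoA carboxylase, was at 27.1 ± 5.64 CPM in KO vehicle against 54.8 ± 25.5 CPM in WT vehicle, and at 63.3 ± 35.9 CPM in KO Treg. Its log2 fold change in KO Treg against KO vehicle was 1.23 ± 0.39 (edgeR adjusted p = 0.408). Fads3, a desaturase relative, was at 282 ± 70.7 against 159 ± 36.8 CPM, higher in KO vehicle by 0.83 ± 0.24 (edgeR adjusted p = 0.156). Elovl3, an elongase known from thermogenic fat, ranged from 1.01 to 97.4 CPM, and its r with the 10 genes was 0.23. Tecr, the last reductase of the elongation cycle, had r = 0.963.

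The regulators of SREBP-1 and ChREBP came next. Of 42 tested genes, 31 were below 0 in KO vehicle against WT vehicle, with a median of -0.15. In KO Treg against KO vehicle 30 were above 0, with a median of 0.14, and none was called. The medians of carbon supply were farther from 0 in both comparisons (-0.44 and 0.40), and those of triglyceride assembly were about as near (-0.13 and 0.15). Irs2, an insulin receptor substrate, was at 128 ± 9.999 CPM in KO vehicle against 78.5 ± 16.3 CPM in WT vehicle (log2 fold change 0.71 ± 0.22, edgeR adjusted p = 0.178). It ran against the pathway across libraries (r = -0.83), as did Nr1h3, which encodes the sterol receptor LXR alpha (r = -0.79, chosen after its values were seen). Tef, a circadian output factor, had the smallest p in KO Treg against KO vehicle, at 327 ± 10.6 against 195 ± 25.2 CPM (0.75 ± 0.18, edgeR adjusted p = 0.260). Mlx, the partner with which ChREBP binds DNA, was at 16.8 ± 5.86 CPM in WT vehicle. It was at 9.63 ± 2.39 CPM in the knockouts given vehicle and at 11.7 ± 4.07 CPM in those given Treg. In KO Treg against WT vehicle its log2 fold change was -0.53 ± 0.27 (edgeR adjusted p = 0.9999).

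Steps that use the new fatty acids, and the related sterol pathway, were read as well. In triglyceride assembly 12 of 15 tested genes were below 0 in KO vehicle against WT vehicle, with a median of -0.13. Agpat3, an acyltransferase, had the smallest p there (-0.48 ± 0.19, edgeR adjusted p = 0.300), and Lpin1 in KO Treg against KO vehicle (0.48 ± 0.21, edgeR adjusted p = 0.529). In cholesterol synthesis 17 of 22 were below 0, with a median of -0.27, and Cyp51 had the smallest p (-1.08 ± 0.54, edgeR adjusted p = 0.467). Hmgcs1 of that list had a higher mean in KO vehicle, at 958 ± 442 CPM in KO vehicle against 594 ± 291 CPM in WT vehicle and 553 ± 123 CPM in KO Treg. In KO Treg against KO vehicle 10 of the 15 and 17 of the 22 were above 0. No gene of either list was called in any comparison. With the mean standardised level of the 10 genes the median r was 0.70 for the 22, with 8 above 0.8. For the 15 it was 0.59, with 2 above 0.8, beside 1.46% of all tested genes outside the 10. Hmgcs1 had the lowest r of the 22, at -0.63.

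Among 9618 genes outside the 10 with a mean of at least 5 CPM, the pattern most like the mean standardised level of the 10 was that of Slc25a1, the carrier that exports citrate from the mitochondrion (r = 0.985 over 12 libraries). KO vehicle 2 was lowest at 50.3 CPM and KO Treg 1 highest at 397 CPM. Gbe1, a glycogen branching enzyme (r = 0.982), Gpi1, a glycolytic isomerase (0.979), Slc2a5, the fructose transporter (0.976), and Acss2, which makes acetyl-CoA from acetate (0.976), followed. Slc2a5 had 2 counts in KO vehicle 1, under the limit of 3 counts used here for detection, and reached 119 CPM in WT vehicle 2. The next were Ptges, a prostaglandin E synthase (0.9751), Tkt (0.972), Nrn1 (0.967), Tecr (0.963) and Atp6v1g1, a proton pump subunit (0.963). Tkt spanned 21.0-fold and Atp6v1g1 1.85-fold.

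In all, 52 of the 9618 genes had r above 0.9 and 7 below -0.9. The most opposed were Plk3, a stress-responsive kinase (r = -0.919), Nav1 (-0.915), Cmip (-0.908), Enc1 (-0.905) and Rab15 (-0.905). Plk3 was lowest in WT vehicle 2, at 2.89 CPM, and highest in KO vehicle 1, at 22.5 CPM. These genes were picked for their likeness over the same libraries, so the values describe them and test nothing. None of the 10 most alike was called between groups: in KO vehicle against WT vehicle their log2 fold changes ran from -0.35 for Atp6v1g1 to -1.20 for Tkt, with edgeR adjusted p-values of at least 0.268.

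Other cell types were read beside the pathway. The sum of thermogenic markers had r = 0.04 with the mean standardised level of the 10 genes over the 12 libraries, and that of white adipocyte markers r = 0.34, or -0.28 without Cfd, the most abundant of them. White adipocyte markers summed to 83972 to 100974 CPM in WT vehicle, to 66676 to 84876 CPM in the knockouts given vehicle, and to 70955 to 96415 CPM in those given Treg. The vehicle groups overlapped in this sum, with KO vehicle 3 (84876 CPM) above WT vehicle 4 (83972 CPM). Cfd (adipsin), a protein secreted by fat cells, was at 26151 ± 6072 CPM in KO vehicle against 46676 ± 7813 CPM in WT vehicle (mean ± SD, n = 4 each, edgeR adjusted p = 0.0657). Without Cfd the other 9 summed to 38045 to 51535 CPM in WT vehicle and to 43168 to 53193 CPM in KO vehicle. In KO Treg they summed to 37707 to 52276 CPM, and all 3 groups overlapped. Fabp4 was the largest part of this sum, at 32252 ± 2089 CPM in KO vehicle against 27237 ± 6429 CPM in WT vehicle. The sum without Cfd thus says little about the less abundant markers. Of the 10 markers, 5 had a lower and 5 a higher mean in KO vehicle than in WT vehicle. Retn was among the lower, at 722 ± 412 CPM in KO vehicle against 1405 ± 413 CPM in WT vehicle (edgeR adjusted p = 0.329). So was Car3, at 4445 ± 1041 against 5962 ± 1080 CPM (edgeR adjusted p = 0.313). Adipoq, which encodes adiponectin, was at 4769 ± 887.7 against 4543 ± 303 CPM, and Lep, which encodes leptin, at 262 ± 85.7 against 56.4 ± 43.6 CPM (edgeR adjusted p = 0.897 and 0.102). Of 10 markers of mammary epithelium, a tissue that makes fatty acids with the same enzymes, Csn3, Wap and Elf5 were at 0 in every library, and the sum of all 10 was 12.9 to 46.0 CPM (r = 0.10). The sum of 5 blood markers, of which Hba-a1, Hba-a2 and Hbb-bt were at 0 throughout, was 26.0 to 142 CPM and had r = -0.71. Macrophage markers summed to 724 to 1122 CPM (r = -0.46), and the part of blood or macrophage RNA was not tested.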

How the data were processed

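Raw read counts, one table per library, were deposited by the authors. Per the labels' protocols, column-extracted, DNase-treated RNA went into QuantSeq libraries. Per the submitters' processing notes, BWA 0.7.12, SAMtools 1.3.1, TopHat2 2.1.1, HTSeq 0.6.1 and the build mm10 were used. The sources used here do not give their roles, the annotation or the strand setting.

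From the deposited counts, genes were kept by filterByExpr and scaled by TMM, and all 12 libraries entered 1 edgeR 4.0.16 quasi-likelihood fit (robust, no covariate) in R 4.3.3. P-values were adjusted over all genes tested (Benjamini-Hochberg), and the threshold was 0.05. CPM used TMM-scaled totals, and log2 CPM a prior count of 2. SE is the log2 fold change divided by the square root of F. A limit of 3 counts, between 0.241 and 0.538 CPM here, covers counting error only. Replicates are numbered by accession and are unpaired. The code was tested on simulated data.

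Alternatives were RLE and upper quartile scaling, totals without the 10 genes, no filter, DESeq2 1.42.0, limma 3.58.1 voom, 2 groups alone, the number series, another prior count, and libraries left out. The following left-out sets were chosen after seeing the data: the placental, the Ucp1 and the low-Fasn libraries. So were log2 CPM for the check of single animals and the white adipocyte sum without Cfd. The 10 genes, the lists and the tests were chosen with earlier results of these data known. All 10 genes were named, with the 10 genes most like and the 5 most opposed to them, and from each list the gene of smallest p in each comparison plus genes of extreme fold. One result under this rule is not reported here. Other genes were picked once their values were known, as stated beside each. Positions came from GENCODE and upstream sequences from RefSeq.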

Additional observations from a re-analysis of the deposited data

Results flagged for a closer look

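Of 30 sets of 4 libraries (10 genes in 3 groups), 8 held an animal far from the other 3 on linear CPM. Chance marks about 1 in 20 groups of normally distributed values and more of skewed ones. On log2 CPM none of the 30 was marked, and the 8 had a gap of 0.59 to 0.77 of the range, under the critical value used. The 10 genes are correlated, so these are not 8 separate events. In 7 of them it was KO vehicle 3, highest in its group for Fasn (12511 CPM), Acaca (1255 CPM), Acly (1751 CPM), Scd2 (445 CPM), Elovl6 (352 CPM), Me1 (2084 CPM) and Thrsp (4583 CPM). The same animal was not marked for Mlxipl, Srebf1 or Scd1. In WT vehicle, animal 2 stood apart for Mlxipl at 445 CPM. Of the marker sums, that of thermogenic fat stood apart in WT vehicle 1 (5874 CPM), and that of placenta in KO vehicle 1 (43.2 CPM) and in KO Treg 2 (136 CPM).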

How the results depend on the processing

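Each comparison was refitted under 23 alternatives for each of the 10 genes. The 230 values are not separate checks, since the genes are correlated and the fits share libraries. Some fits left out only a library of the group not compared. Without any 1 WT vehicle library the median of KO Treg against KO vehicle stayed between 1.21 and 1.23. All 230 log2 fold changes of KO Treg against KO vehicle kept their direction and stayed short of the threshold. In KO vehicle against WT vehicle 228 of 230 did so. Mlxipl was called by DESeq2 at -1.01, so DESeq2 called 1 of the 10 genes there and again 1 (Mlxipl), among 185 genes in all, in the test of any difference, and Scd2 ran from -1.19 to 0.40 with 1 library left out. In KO Treg against WT vehicle 41 of 230 turned in sign, none of them past the threshold. With 1 library left out there, Fasn ran from -0.17 to 0.78, Acaca from -0.17 to 0.37, Acly from -0.30 to 1.35, Scd1 from -0.33 to 0.17, Scd2 from -0.23 to 0.86, Elovl6 from -0.57 to 1.25, Me1 from -0.28 to 0.92, Thrsp from -0.10 to 0.61, Mlxipl from -0.42 to 0.15 and Srebf1 from -0.27 to 0.50. With limma voom Acaca was at -0.031, Elovl6 at -0.12 and Srebf1 at -0.069. In the lower number series Acly was at -0.18, Scd2 at -0.10, Elovl6 at -0.33, Me1 at -0.49 and Thrsp at -0.072, and without the Ucp1 libraries Acaca was at -0.11, Acly at -0.068, Elovl6 at -0.21 and Me1 at -0.083. Over all genes, edgeR called 34 in KO vehicle against WT vehicle, 1 in KO Treg against KO vehicle and 0 in KO Treg against WT vehicle, and DESeq2 called 250, 54 and 1. The first 2 edgeR counts, 34 and 1, were both 0 in edgeR fits with the number series as a covariate, in the lower series alone and without the Ucp1 libraries, and they were 3 and 0 without the placental libraries. With 1 library left out, the edgeR count of KO vehicle against WT vehicle ran from 1 to 125, and that of KO Treg against KO vehicle was 0 throughout, as it was with RLE scaling and with the 2 groups alone. The cause of these changes was not tested. All 9 correlations with Fasn passed under RLE scaling and with the other prior count. No paired analysis was possible because the labels number no replicates. Depth limits little here, since the lowest count of the 10 genes in any library was 85, and the spread between 4 animals limits the comparisons.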

Other observations

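Values of further genes around the pathway, chosen after they were seen, are given as levels only. Slc2a4, the insulin-responsive glucose transporter GLUT4, was at 431 ± 179.8 CPM in WT vehicle (mean ± SD, n = 4). It was at 309 ± 165 CPM in KO vehicle, with 454 ± 103 CPM in KO Treg, and had r = 0.89 with the mean standardised level of the 10 genes over 12 libraries. Dgat2, which makes triglyceride from diglyceride, was at 1008 ± 568 CPM, 659.7 ± 437 CPM and 1232 ± 759 CPM in the same order (r = 0.92). Cebpa, a transcription factor of fat cells, kept within 1879 to 3262 CPM (r = 0.84). Dbp, a circadian output factor, was at 25.4 ± 15.5 CPM, 12.04 ± 5.02 CPM and 28.4 ± 10.9 CPM (r = 0.62), while the clock gene Arntl had r = 0.08. None of these 5 genes was called between groups by edgeR.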
